A study of Arabidopsis thaliana with 9 samples.

Results

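The 109 distinct small RNAs (sRNAs) described here came from Ah20mirS3, an sRNA precursor of the Arabidopsis halleri S-allele Ah20, and were compared between the 3 libraries that listed them. Every entry that the deposited table attributes to Ah20mirS3 was taken, 162 in all, and entries with the same start, end, strand and sequence were counted as 1 sRNA. These 109 were part of the 272 distinct sRNAs listed for the 3 precursors of the series. The libraries were made from immature floral buds of A. thaliana C24 plants homozygous for the Ah20mirS3 transgene, C24 being the A. thaliana ecotype used to rebuild self-incompatibility. They were 1 input sample taken without antibody, 1 AGO1-IP immunoprecipitated with an antibody against ARGONAUTE 1 (AGO1), and 1 AGO4-IP immunoprecipitated with an antibody against ARGONAUTE 4 (AGO4). The methods of the study describe 1 reference Ah20mirS3 line, whose insert also holds the neighbouring Ah20mir1887 precursor. They do not state outright that these 3 libraries came from that line. The sRNAs were listed under the codes AVBR-8, AVBR-9 and AVBR-15. None of these codes could be tied to input, AGO1-IP or AGO4-IP from the labels or the methods, and the values below were not used to tie them. There was 1 library per fraction and no replicate, so no test was possible and no difference between libraries could be set against replicate error. The table holds no read counts, the depth of each library is unknown, and the number of sRNAs a library lists depends on its depth. Shares are given with 95% Wilson intervals, which cover counting error alone. The sRNAs cut from a hairpin overlap each other and are not independent.

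In the self-incompatible Arabidopsis species, the S-locus encodes the pollen ligand SCR and its pistil receptor SRK, and plants reject pollen that carries an SCR allele matching their own SRK. Dominance between S-alleles in pollen is set by sRNA precursors within the locus, whose sRNAs lower the transcript of the recessive SCR allele. Such a precursor folds into a hairpin whose 5′ and 3′ arms pair and are joined by a loop, and from the arms Dicer-like enzymes cut duplexes that leave 2-nt overhangs at their 3′ ends. An ARGONAUTE protein then keeps 1 strand of a duplex. In A. thaliana, AGO1 is known to favour sRNAs with a 5′ U and to act after transcription, and AGO4 is known to favour 24-nt sRNAs with a 5′ A and to act in RNA-directed DNA methylation.

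The hairpin sequence is shown because every comparison below is a matter of where on it a library's sRNAs begin and end. It was rebuilt from the overlapping sRNAs, with positions counted from 1 along the plus strand of the authors' Ah20 sequence, whose build is not given in the sources used here, and with T standing for U. Capitals mark the bases that sRNAs of all 3 libraries covered. The 5′ arm spans positions 10201 to 10274 and the 3′ arm positions 10305 to 10370, of which the part up to 10341 is printed. No library had an sRNA on the 30 nt between them.
5′ arm: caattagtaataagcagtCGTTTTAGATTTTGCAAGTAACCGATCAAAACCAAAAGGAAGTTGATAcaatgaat
3′ arm, 10305 to 10341: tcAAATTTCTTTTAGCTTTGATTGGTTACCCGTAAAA

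Of the 12 sRNAs listed in all 3 libraries, 11 are shown next, with the first base in capitals, because the libraries are compared by it below. They began at 6 positions. On the 5′ arm, 2 began at 10228, 1 at 10230 and 3 at 10242. On the 3′ arm, 1 began at 10315, 3 at 10320 and 1 at 10321.
mirS3_sRNA414: Ttttgcaagtaaccgatcaaaac
mirS3_sRNA415: Ttttgcaagtaaccgatcaaaacc
mirS3_sRNA349: Ttgcaagtaaccgatcaaaac
mirS3_sRNA200: Gatcaaaaccaaaaggaagt
mirS3_sRNA201: Gatcaaaaccaaaaggaagtt
mirS3_sRNA204: Gatcaaaaccaaaaggaagttgat
mirS3_sRNA366: Tttagctttgattggttacccgta
mirS3_sRNA183: Ctttgattggttacccgtaaa
mirS3_sRNA184: Ctttgattggttacccgtaaaa
mirS3_sRNA186: Ctttgattggttacccgtaaaatt
mirS3_sRNA383: Tttgattggttacccgtaaaa

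All 12 shared sRNAs were 20 to 24 nt long with a median of 22 nt, and 6 lay on each arm. Of these, 6 began with U, 3 with C, 3 with G and none with A.

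AVBR-8 listed 78 distinct Ah20mirS3 sRNAs, AVBR-9 listed 38 and AVBR-15 listed 46. The libraries differed in how much of their list was their own. Of the AVBR-8 sRNAs, 48 were listed in no other library (61.5%, 95% interval 50.4 to 71.6). The same held for 12 of the AVBR-9 sRNAs (31.6%, 19.1 to 47.5) and for 8 of the AVBR-15 sRNAs (17.4%, 9.09 to 30.7). The interval of AVBR-8 lay above those of both other libraries, whose intervals overlapped. AVBR-8 was also the longest list, and the part of depth in this difference was not tested.

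Of the sRNAs found in a pair of libraries but not in the remaining one, 15 were shared by AVBR-8 and AVBR-15, 11 by AVBR-9 and AVBR-15 and 3 by AVBR-8 and AVBR-9. With the 12 common sRNAs included, AVBR-8 and AVBR-15 had 27 in common, which was 34.6% of the AVBR-8 list and 58.7% of the AVBR-15 list. AVBR-9 and AVBR-15 had 23 in common, 60.5% of the AVBR-9 list and 50.0% of the AVBR-15 list. The overlap of AVBR-8 and AVBR-9 was 15, or 19.2% and 39.5% of their lists. AVBR-15 thus had more sRNAs in common with each of the others than these had with each other. Exact ends mattered to these counts. When sRNAs with both ends within 1 nt were counted as shared, the number in 1 library only fell from 68 to 22 and the number in all 3 rose from 12 to 54. Leaving out a library changes the classes themselves, so these counts are not like for like. Without AVBR-8, 38 sRNAs were listed in only 1 of the libraries left, beside 68 in 1 of the 3. Without AVBR-15, 15 were listed in both libraries left, and 12 of these had been in all 3.

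The shared sRNAs were sorted by their first base according to which pair of libraries held them. All 15 sRNAs found in AVBR-8 and AVBR-15 but not in AVBR-9 began with U. Of the 11 found in AVBR-9 and AVBR-15 but not in AVBR-8, none began with U, while 7 began with A, 2 with C and 2 with G. The first set was short, 20 to 23 nt with a median of 21 nt, and had 12 of its members on the 3′ arm. The second set had a median of 24 nt and 7 of its members on the 5′ arm. The 3 sRNAs found in AVBR-8 and AVBR-9 but not in AVBR-15 began with C or G and lay on the 3′ arm.

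**Figure D1:**
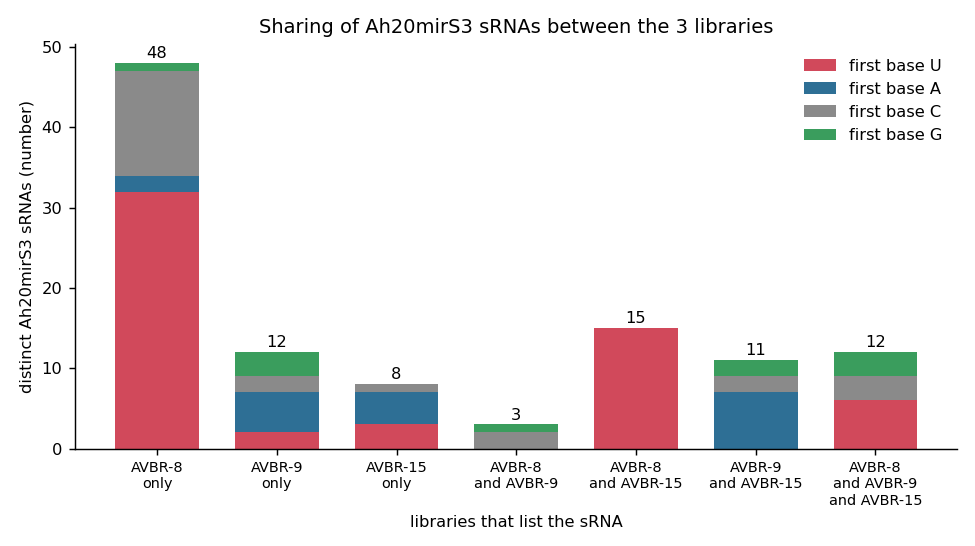
Number of distinct Ah20mirS3 sRNAs (vertical axis) in each of the 7 combinations of libraries that list them (horizontal axis), with the bars divided by first base. The bar shared by AVBR-8 and AVBR-15 holds 15 sRNAs, all with a 5′ U, and the bar shared by AVBR-9 and AVBR-15 holds 11, none with a 5′ U.

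Over the full lists, a 5′ U was found in 53 of the 78 AVBR-8 sRNAs (67.9%, 57.0 to 77.3), in 8 of the 38 AVBR-9 sRNAs (21.1%, 11.1 to 36.3) and in 24 of the 46 AVBR-15 sRNAs (52.2%, 38.1 to 65.9). A 5′ A was found in 2 AVBR-8 sRNAs (2.56%, 0.706 to 8.88), 12 AVBR-9 sRNAs (31.6%, 19.1 to 47.5) and 11 AVBR-15 sRNAs (23.9%, 13.9 to 37.9). The AVBR-9 interval for U lay below both others, and the AVBR-8 interval for A lay below both others. The separation of AVBR-9 from AVBR-15 for U was narrow and was lost among sRNAs of 20 to 24 nt (12.1 to 39.0 against 37.7 to 66.6), among sRNAs in at least 2 libraries (11.0 to 42.1 against 39.7 to 69.9) and among sRNAs in no other library (4.70 to 44.8 against 13.7 to 69.4). For A, the separation of AVBR-8 from AVBR-15 was lost among sRNAs in at least 2 libraries (0 to 11.4 against 9.22 to 33.4). AVBR-8 and AVBR-15 had overlapping intervals for U. Of the covered bases of the hairpin, 37.1% were U and 35.0% were A.

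Counted from the sRNAs, 53 of the 58 with a 5′ U were listed in AVBR-8, against 2 of the 18 with a 5′ A. AVBR-9 listed 8 and 12 of these sets and AVBR-15 listed 24 and 11. Both AVBR-8 sRNAs with a 5′ A, mirS3_sRNA122 at 10203 and mirS3_sRNA17 at 10307, were listed in no other library. AVBR-15 drew on both sets, since 21 of its 24 sRNAs with a 5′ U were also in AVBR-8 and 7 of its 11 with a 5′ A were also in AVBR-9. A 5′ C was found in 18, 9 and 6 sRNAs of AVBR-8, AVBR-9 and AVBR-15, and a 5′ G in 5, 9 and 5.

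**Figure D2:**
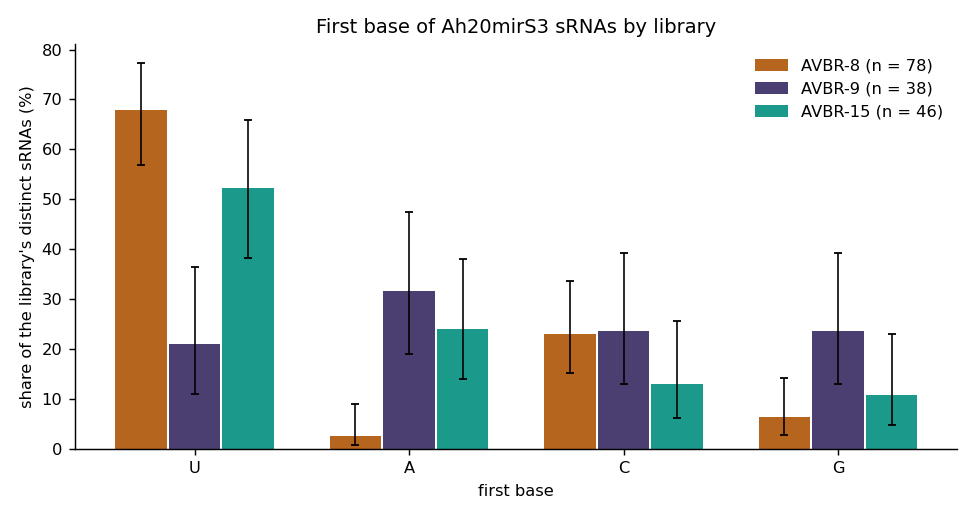
Share of each library's distinct sRNAs (vertical axis, %) with each first base (horizontal axis), where bars are the 3 libraries and error bars are 95% Wilson intervals. AVBR-8 has the highest bar for U at 67.9% and the lowest for A at 2.56%, and AVBR-9 has the lowest for U at 21.1% and the highest for A at 31.6%.

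The arms differed in base content, U being 27.0% of the covered bases of the 5′ arm and 48.5% of those of the 3′ arm, so first bases were also counted by arm. In AVBR-8, a 5′ U was found in 17 of 28 sRNAs of the 5′ arm and in 36 of 50 of the 3′ arm. In AVBR-9 these counts were 5 of 17 and 3 of 21. On each arm, the share with a 5′ U was therefore higher in AVBR-8 than in AVBR-9. These counts by arm are small and are given without intervals. AVBR-15 differed between its arms, with 9 of 24 on the 5′ arm and 15 of 22 on the 3′ arm. Its sRNAs with a 5′ A were mostly on the 5′ arm, 8 of 24 against 3 of 22. A was also more frequent there, at 41.9% of the covered bases against 27.3% on the 3′ arm.

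The median length was 21 nt in AVBR-8, 23 nt in AVBR-9 and 22 nt in AVBR-15. The most frequent length was 21 nt in AVBR-8 and AVBR-15, with 22 and 16 sRNAs, and 24 nt in AVBR-9, with 11. The 21-nt class made up 28.2% of the AVBR-8 list (19.4 to 39.0), 23.7% of the AVBR-9 list (13.0 to 39.2) and 34.8% of the AVBR-15 list (22.7 to 49.2), and the intervals overlapped. The 24-nt class made up 8.97% of AVBR-8 (4.42 to 17.4), 28.9% of AVBR-9 (17.0 to 44.8) and 21.7% of AVBR-15 (12.3 to 35.6). The intervals of AVBR-8 and AVBR-9 for 24 nt overlapped by a narrow margin.

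Grouped more broadly, sRNAs of 23 to 25 nt were 20.5% of AVBR-8 (13.0 to 30.8), 55.3% of AVBR-9 (39.7 to 69.9) and 43.5% of AVBR-15 (30.2 to 57.8). The AVBR-9 interval lay above that of AVBR-8. At the short end, sRNAs of 18 to 20 nt were 28.2% of AVBR-8 (19.4 to 39.0), 10.5% of AVBR-9 (4.17 to 24.1) and 8.70% of AVBR-15 (3.43 to 20.3). These intervals overlapped. All 3 of the 18-nt sRNAs were listed in AVBR-8, and AVBR-15 listed none under 20 nt.

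**Figure D3:**
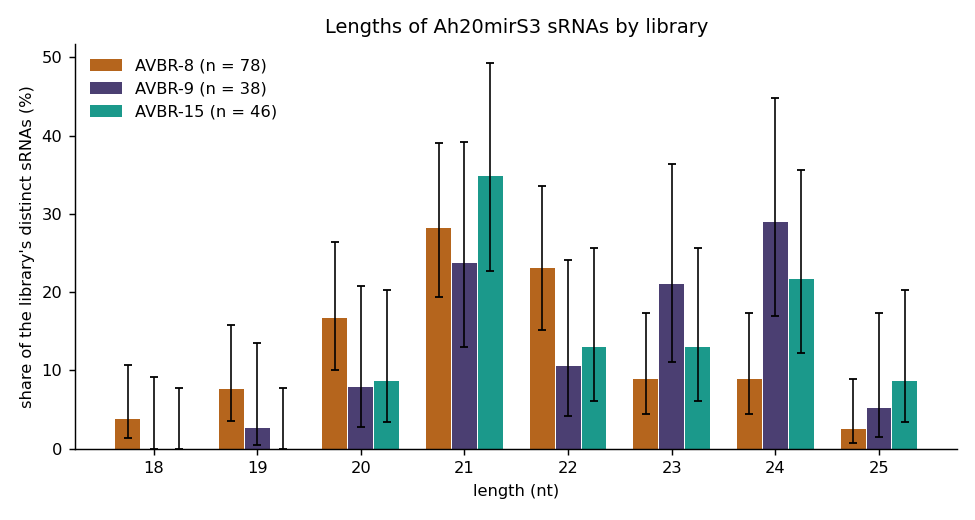
Share of each library's distinct sRNAs (vertical axis, %) at each length from 18 to 25 nt (horizontal axis), where bars are the 3 libraries and error bars are 95% Wilson intervals. AVBR-8 is highest at 18 to 20 nt and at 22 nt, AVBR-15 at 21 nt (34.8%) and AVBR-9 at 23 nt and 24 nt (28.9%).

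First base and length were then read together. Among 21-nt sRNAs, a 5′ U was found in 16 of 22 in AVBR-8, 2 of 9 in AVBR-9 and 9 of 16 in AVBR-15. Among 24-nt sRNAs, it was found in 5 of 7 in AVBR-8, 2 of 11 in AVBR-9 and 2 of 10 in AVBR-15. AVBR-8 therefore had mostly 5′ U sRNAs at both lengths and AVBR-9 at neither. In AVBR-15 the 21-nt sRNAs with a 5′ A numbered 4 and the 24-nt ones 5, beside 3 and 4 in AVBR-9 and none of either in AVBR-8.

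The sRNAs of AVBR-8 began at 33 positions, those of AVBR-9 at 18 and those of AVBR-15 at 29. Of the 44 positions used in all, 18 were used in 1 library, 16 in 2 and 10 in 3. AVBR-9 used no 5′ end of its own. AVBR-8 had 12 that no other library used, 9 of them at a U, 3 at a C and none at an A. AVBR-15 had 6, all on the 5′ arm, of which 3 were at an A, 2 at a U and 1 at a C. The 8 positions used by AVBR-8 and AVBR-15 but not AVBR-9 comprised 7 at a U and 1 at an A. The 5 used by AVBR-9 and AVBR-15 but not AVBR-8 comprised 4 at an A and 1 at a G. With each 5′ end counted once, the share at a U was 66.7% in AVBR-8 (49.6 to 80.2), 33.3% in AVBR-9 (16.3 to 56.3) and 48.3% in AVBR-15 (31.4 to 65.6), and the share at an A was 6.06% (1.68 to 19.6), 27.8% (12.5 to 50.9) and 31.0% (17.3 to 49.2). The order of the libraries for U was that found over sRNAs, but all of these intervals overlapped between libraries.

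**Figure D4:**
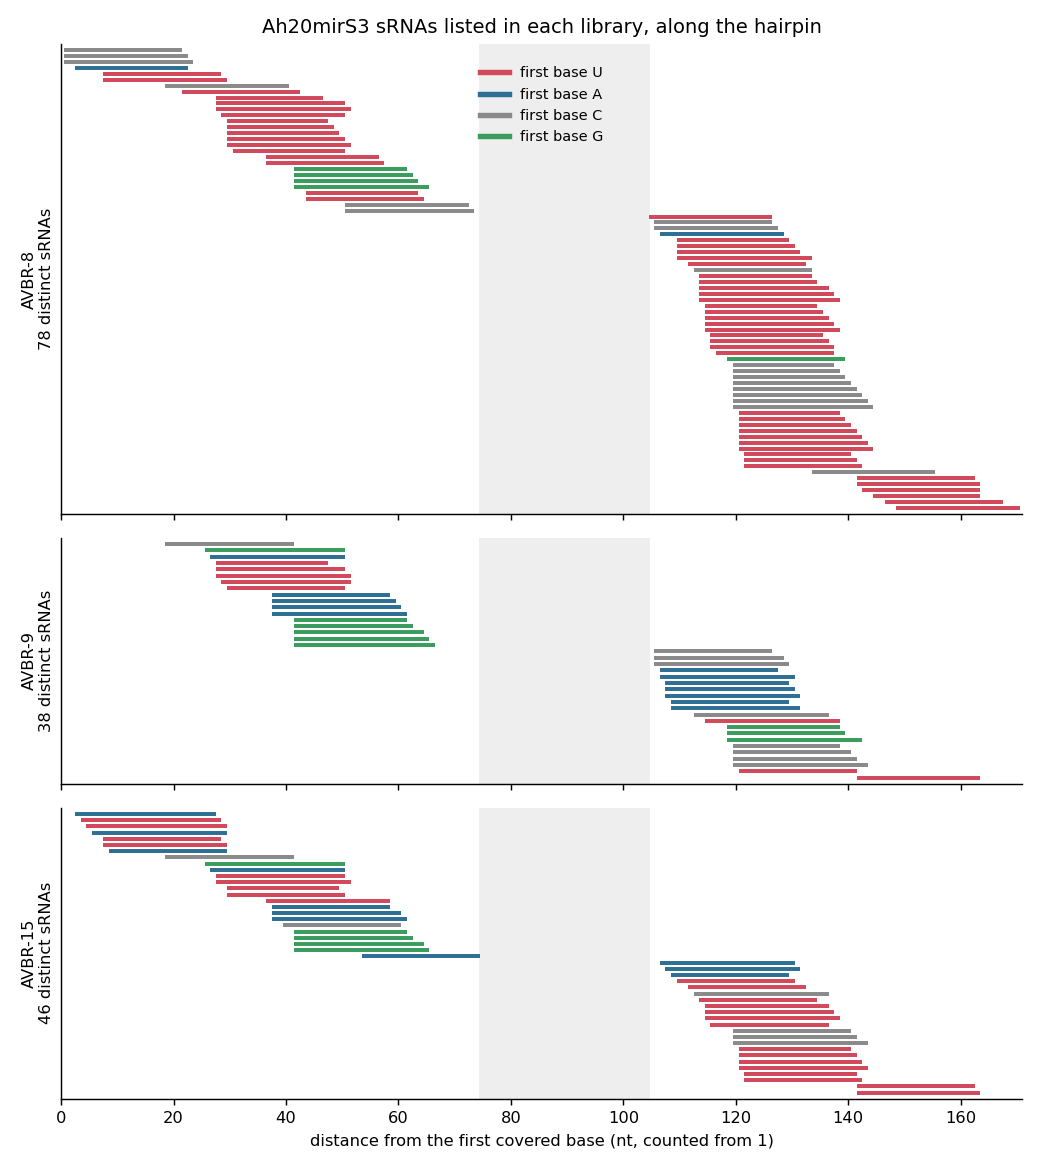
Each horizontal line is 1 distinct sRNA drawn from its 5′ to its 3′ end along the hairpin (horizontal axis, nt from position 10201, which is counted as 1), in a panel per library and coloured by first base, with the 30 uncovered nt in grey. AVBR-8 (78 sRNAs) is mostly U-coloured on the 3′ arm, where 36 of 50 begin with U, and AVBR-9 (38 sRNAs) has no sRNA at either end of the 5′ arm.

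A 5′ end carried 2.36 sRNAs on average in AVBR-8, 2.11 in AVBR-9 and 1.59 in AVBR-15, the members of such a set differing only at the 3′ end. Position 10320 carried the largest set, 8 sRNAs with 1 at every length from 18 to 25 nt, and all of them were listed in AVBR-8. AVBR-9 listed 4 of these and AVBR-15 listed 3. The 4 listed in AVBR-8 alone were 18, 20, 23 and 25 nt long, and the 3 listed everywhere, mirS3_sRNA183, mirS3_sRNA184 and mirS3_sRNA186, were 21, 22 and 24 nt long. The shortest and longest of the set show how far the 3′ end moved.
mirS3_sRNA180: Ctttgattggttacccgt
mirS3_sRNA187: Ctttgattggttacccgtaaaattt

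One base further on, at position 10321, lay 7 sRNAs with a 5′ U. AVBR-8 listed all 7, AVBR-9 listed 1 and AVBR-15 listed 4. The step of a single base from a C to a U was thus accompanied by a change in the AVBR-9 list from 4 sRNAs to 1. One base before, at position 10319, the 3 sRNAs with a 5′ G were all listed in AVBR-9, while AVBR-8 listed 1 and AVBR-15 none. The 3 neighbouring positions overlap almost completely, so these sRNAs share most of their sequence.

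The 5′ end with the most sRNAs in AVBR-9 was 10242, a G on the 5′ arm, which in AVBR-15 was tied with 10321 at 4 sRNAs. It carried 6 sRNAs of 20 to 25 nt, of which AVBR-8 listed 4, AVBR-9 listed 5 and AVBR-15 listed 4. mirS3_sRNA203 of 23 nt was missing from AVBR-8, mirS3_sRNA205 of 25 nt was listed in AVBR-9 alone, and mirS3_sRNA202 of 22 nt in AVBR-8 alone. The 3 counts were similar, although the lists of AVBR-8, AVBR-9 and AVBR-15 held 78, 38 and 46 sRNAs, so the shares were not.

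Positions 10314, a U on the 3′ arm, and 10320 each carried 4 sRNAs listed in AVBR-8 alone, the most of any 5′ end. Of the 5 sRNAs of 10314, AVBR-8 listed all, AVBR-15 listed 1 of 21 nt and AVBR-9 listed none. The neighbouring U positions had similar counts, with 5, 1 and 3 sRNAs of AVBR-8, AVBR-9 and AVBR-15 at 10315, 3, 0 and 1 at 10316 and 4, 0 and 1 at 10310. The 4 sRNAs of 10314 that were in AVBR-8 alone are shown for contrast with the sets that follow.
mirS3_sRNA403: Ttttagctttgattggttac
mirS3_sRNA406: Ttttagctttgattggttacccg
mirS3_sRNA407: Ttttagctttgattggttacccgt
mirS3_sRNA408: Ttttagctttgattggttacccgta

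For AVBR-9, 3 positions tied with 2 sRNAs listed in no other library, namely 10306 at a C, 10308 at an A and 10319 at a G, and the lowest of these held mirS3_sRNA144 and mirS3_sRNA145. For AVBR-15, no position had more than 1 such sRNA, and the lowest was 10203, where mirS3_sRNA126 of 25 nt began with A. AVBR-8 listed a shorter sRNA from that same base, the 20-nt mirS3_sRNA122.
mirS3_sRNA144: Caaatttcttttagctttgattg
mirS3_sRNA145: Caaatttcttttagctttgattgg
mirS3_sRNA126: Attagtaataagcagtcgttttaga

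The A positions with several sRNAs, chosen after their values were seen, had more sRNAs in AVBR-9 than in AVBR-8, except for 10203 described above. The U positions were not uniform either, since AVBR-8 and AVBR-9 each listed 3 sRNAs at 10228 and 1 at 10229. At 10238 on the 5′ arm lay 4 sRNAs of 21 to 24 nt, all listed in AVBR-9, 3 of them in AVBR-15 and none in AVBR-8. At 10308 on the 3′ arm the counts were 3 in AVBR-9, 1 in AVBR-15 and 0 in AVBR-8, and at 10309 they were 2, 1 and 0. At 10307, AVBR-9 listed 2 of 3 sRNAs and the other libraries 1 each. The set at 10238 is shown because it lay between 10230 and 10242. At the U position 10230, AVBR-8 listed 5 sRNAs and AVBR-9 listed 1, and at 10242 the counts were similar.
mirS3_sRNA24: Aaccgatcaaaaccaaaagga
mirS3_sRNA25: Aaccgatcaaaaccaaaaggaa
mirS3_sRNA26: Aaccgatcaaaaccaaaaggaag
mirS3_sRNA27: Aaccgatcaaaaccaaaaggaagt

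The sRNAs listed in a single library differed in how much of them was new to that library. Of the 48 in AVBR-8 alone, 18 had both ends in use in another library, 14 shared the 5′ end only, 6 shared the 3′ end only and 10 shared neither. Of the 12 in AVBR-9 alone, 10 had both ends in use elsewhere and 2 shared the 5′ end only. Of the 8 in AVBR-15 alone, 1 had both ends elsewhere, 1 shared the 5′ end only, 5 shared the 3′ end only and 1 shared neither. The sRNAs of AVBR-9 alone were thus new pairings of ends or new 3′ ends at known 5′ ends, and those of AVBR-15 alone were mostly new 5′ ends at known 3′ ends. All 8 of the latter lay on the 5′ arm.

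The 5′ arm held 28 of the 78 AVBR-8 sRNAs (35.9%, 26.1 to 47.0), 17 of the 38 AVBR-9 sRNAs (44.7%, 30.1 to 60.3) and 24 of the 46 AVBR-15 sRNAs (52.2%, 38.1 to 65.9). These intervals overlapped. Among sRNAs in no other library, the AVBR-15 interval lay above both others, since all 8 were on the 5′ arm (100%, 67.6 to 100). The shares of AVBR-8 (39.6%, 27.0 to 53.7) and AVBR-9 (33.3%, 13.8 to 60.9) had overlapping intervals. Coverage of the arms did differ. AVBR-8 covered 73 and AVBR-15 covered 72 of the 74 bases of the 5′ arm, while AVBR-9 covered 48, from 10219 to 10266. On the 3′ arm, AVBR-8 covered all 66 bases, AVBR-9 covered 58 and AVBR-15 covered 57.

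Of the 140 covered bases, 105 were covered in all 3 libraries, 24 in 2 and 11 in 1. The longest stretch covered in a single library on the 3′ arm was 10364 to 10370, 7 bases in AVBR-8, and on the 5′ arm it was 10201 to 10202, also in AVBR-8. The base most often covered lay at about the same place in each library. On the 3′ arm, the maximum was 43 sRNAs in AVBR-8 at 10322 to 10326, 20 in AVBR-9 at 10321 to 10326 and 20 in AVBR-15 at 10322 to 10329. On the 5′ arm it was 18 in AVBR-8 at 10244 to 10246, 16 in AVBR-9 at 10242 to 10247 and 15 in AVBR-15 at 10242 to 10249. The libraries therefore had their maxima in common and differed at the margins and in the bases at which their sRNAs began.

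**Figure D5:**
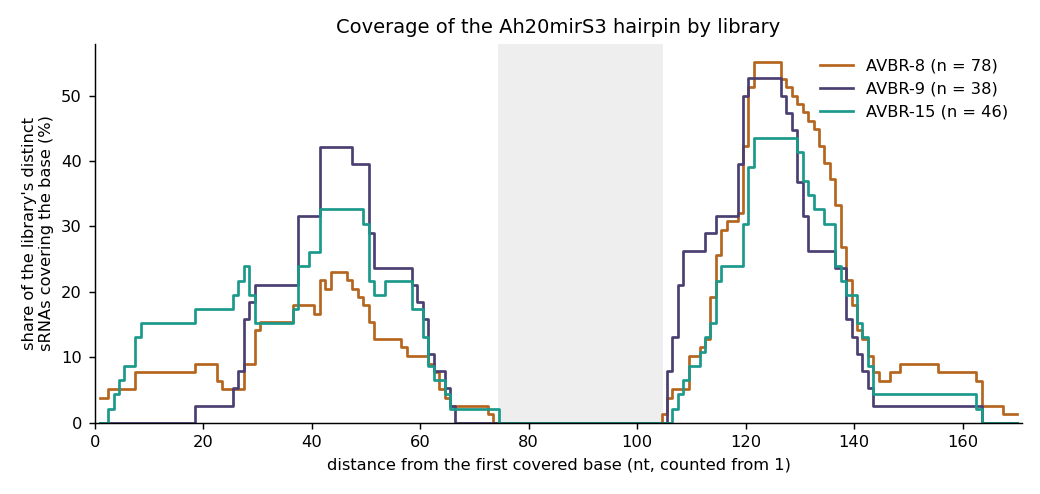
Share of each library's distinct sRNAs that cover a base (vertical axis, %) along the hairpin (horizontal axis, nt from position 10201, counted as 1), with a line per library and the 30 uncovered nt in grey. All 3 lines peak within each arm at nearly the same bases, and the AVBR-9 line is at 0 at both ends of the 5′ arm.

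When the hairpin was folded with the uncovered nt as unknown bases, sRNAs of the 5′ and 3′ arms could be paired as the strands of a duplex. With a 2-nt 3′ overhang at both ends, 22 pairs were found, more than for any other equal overhang from -2 to 6 nt, of which 1 nt came next with 17 pairs. With each end of the duplex counted by itself, 2 nt had the most pairs at the end nearer the loop, 123. At the other end it did not, with 96 pairs against 97 for -1 nt. Of the 22 pairs, both strands were listed in the same library for 13 in AVBR-8, 4 in AVBR-9 and 7 in AVBR-15, and for 6 in no library. In AVBR-8 and AVBR-15 the 2-nt overhang had the most pairs, whereas AVBR-9 had 5 pairs with blunt ends. The counts in AVBR-9 were small, and it also had the shortest list.

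Both strands were in all 3 libraries for 2 pairs. In the 24-nt pair, mirS3_sRNA415 of the 5′ arm lay opposite mirS3_sRNA186 of the 3′ arm. In the 21-nt pair, mirS3_sRNA349 lay opposite mirS3_sRNA383. The 21-nt pair had a 5′ U on both strands, and the 24-nt pair a 5′ U on the 5′-arm strand and a 5′ C on the other. Both pairs lay in the same region of the stem, so that the longer pair contained the whole of the shorter.

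The other precursors were set beside Ah20mirS3 to place these differences. The share of sRNAs listed in 1 library only was 62.4% for Ah20mirS3 (53.0 to 70.9), 61.1% for Ah04mir1887 (51.0 to 70.2) and 70.6% for Ah20mirS2 (58.9 to 80.1), with overlapping intervals. Like AVBR-15, 1 library of each other precursor had more sRNAs in common with both others than these had with each other. AVBR-14 of Ah04mir1887 had 21 and 30 in common with AVBR-5 and AVBR-6, which shared 16. AVBR-13 of Ah20mirS2 had 12 and 11 in common with AVBR-2 and AVBR-3, which shared 9. The share with a 5′ U ranged between libraries from 21.1% to 67.9% for Ah20mirS3, from 28.9% to 66.7% for Ah04mir1887 and from 51.7% to 71.4% for Ah20mirS2. The share with a 5′ A ranged from 2.56% to 31.6% for Ah20mirS3, from 13.3% to 30.6% for Ah04mir1887 and from 11.9% to 34.8% for Ah20mirS2. Which of these libraries correspond to each other across precursors is not given, and the difference between precursors was not tested.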

How the data were processed

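sRNAs were sequenced from size-selected RNA of 3 fractions. Per the methods of the study, the authors used TrimGalore for trimming and size selection and ShortStack for mapping (up to 1 mismatch). Mapping had 2 steps, against TAIR10 after its own S-locus had been masked and against the Ah20 S-allele, and a read was kept if it mapped to the S-locus and nowhere else. The submitters' processing notes name Trim Galore, FastQC, Bowtie and TAIR10, without versions. The deposited table gives position, length, strand, sequence and library code, with no read counts and no comparisons of the authors. Its 3 library codes were not tied to a sample.

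Starts were taken as BED starts and converted to positions counted from 1. Arms were assigned by the midpoint. The hairpin was folded with RNAfold of ViennaRNA 2.7.2 at default settings. Computation used pandas 2.3.3, numpy 2.4.6 and matplotlib 3.10.9 under Python 3.11.15, with Wilson intervals from scipy 1.17.1, and the counting was tested on simulated data. The sRNAs named are those in all 3 libraries, those at the 5′ end with the most sRNAs in each library and with the most listed in no other library, and the longest stretch per arm covered in 1 library (ties by the lower position), with the exceptions stated. Alternatives changed the definition of a distinct or shared sRNA, the lengths kept, the libraries kept, the sRNAs or 5′ ends counted, and the arm assignment. Members and rules were chosen with earlier results of these data known. The sequence of 1 sRNA in all 3 libraries is not reported here.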

Additional observations from a re-analysis of the deposited data

How the results depend on the processing

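Of 86 values recomputed under the alternatives, 64 stayed close to the reported ones (counts within 1.5 times, shares within the reported 95% interval) and 22 moved. Besides these, all intervals for 5′ U and 5′ A came to overlap between libraries with 5′ ends counted once. For U, those of AVBR-9 and AVBR-15 came to overlap with 20 to 24 nt only and with either subset of sRNAs by library number. For A, those of AVBR-8 and AVBR-15 did so among sRNAs in at least 2 libraries. In these 3 alternatives, AVBR-8 and AVBR-9 stayed apart for both bases. Counting 5′ ends in place of sRNAs gave 44 in all, with 33 in AVBR-8, 18 in AVBR-9 and 29 in AVBR-15, of which 18 were in 1 library and 16 in 2. Counting an sRNA as shared when both ends lay within 1 nt left 22 in 1 library only and put 54 in all 3. Leaving out 1 library at a time gave 38 to 86 sRNAs in 1 library only and 15 to 27 in both libraries left. The latter include the sRNAs formerly in all 3. Among sRNAs listed in no other library, the 21-nt share was 18.8% in AVBR-8 and 8.33% in AVBR-9, the 24-nt share 16.7% in AVBR-9, and AVBR-15 had 37.5% with a 5′ U, 50.0% with a 5′ A and 100% on the 5′ arm, from 8 sRNAs. Among sRNAs in at least 2 libraries, AVBR-8 had 43.3% of 21 nt and 0% with a 5′ A. With the shortest sRNA of each 5′ end, the 24-nt share was 0% in AVBR-8 and 16.7% in AVBR-9. With the longest, AVBR-9 had 11.1% of 21 nt and 55.6% of 24 nt. Several of the alternatives count fewer sRNAs, and the cause of these moves was not tested. Distinctness by sequence alone and arm by 5′ end changed no call. No paired analysis was possible because there was 1 library per fraction and no replicate. Without read counts, an sRNA missing from a library cannot be told apart from one present below its depth.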

Other observations

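In the A. thaliana reference (TAIR10.1, RefSeq), 7 of the Ah20mirS3 sRNAs matched with 1 mismatch and none matched exactly. All 7 matches lay on chromosome 4 between 11370504 and 11370532 and overlapped no annotated gene. The nearest genes were the microRNA genes MIR1887 (11370263 to 11370325, plus strand) and MIR867 (11375364 to 11375481, plus strand). The authors had dropped reads that mapped, with up to 1 mismatch, to TAIR10 outside its masked S-locus. Matches elsewhere were therefore removed beforehand, and nothing can be concluded from the single location. AVBR-8 listed all 7, AVBR-15 listed 3 and AVBR-9 listed 1, the sRNA in all 3 libraries being mirS3_sRNA383.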
